A study of Mus musculus with 29 samples.

Results

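Axon guidance ligands and receptors are the proteins by which growing axons and migrating neurons read their surroundings. The genes described here were all mouse genes whose symbols name a class 3 to 7 semaphorin, a plexin, a neuropilin, a Slit, a Robo, a netrin, a netrin-G, Dcc, an Unc5 receptor, an Eph receptor or an ephrin. The rule used symbols alone and no measured value. It found 71 genes, 37 encoding ligands and 34 encoding receptors, of which 70 were among the 36831 genes that both RNA count tables listed. Ntn3 was the gene outside the count tables, and its RNA was not analysed here.

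As background, class 3 semaphorins are secreted and act through neuropilins, which bind the ligand, and A-class plexins, which carry the signal. Slits bind Robo receptors and mostly repel, whereas netrins attract through Dcc and repel through Unc5 receptors. Ephrins and Eph receptors are both held in the membrane and signal at contact between cells, EphA receptors mainly with the GPI-anchored ephrin-A ligands and EphB receptors mainly with the transmembrane ephrin-B ligands. In the developing cortex these systems set the course of callosal, thalamocortical and corticofugal axons and the radial migration of new neurons.

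The study removed Smarcc1 and Smarcc2, which encode the BAF155 and BAF170 subunits of the BAF chromatin remodelling complexes, from late neural progenitors of the mouse pallium. Both floxed genes were deleted by hGFAP-Cre, which becomes active in the medial pallium first and in the dorsal and lateral pallium later, so that part of the tissue still carries both genes, as do its blood vessels, microglia and immigrant interneurons. The double mutant is called dcKO, and the methods give its controls as littermates heterozygous for both floxed alleles with Cre. All tissue was E17.5 pallium or cortex of C57BL/6J embryos. The RNA libraries fell into untreated C (control, n = 4) and M (mutant, n = 3, replicates 2 to 4), and into a treated set of WT Veh (wild type, vehicle, n = 4), dcKO Veh (n = 4) and dcKO given a Wnt inhibitor (n = 4). By the methods the inhibitor was ICG-001, an antagonist of the β-catenin coactivator CBP, which was injected daily into the pregnant dams from E11.5. H3K27me3, the histone mark laid down by PRC2 at silenced genes, was profiled in C (n = 4) and K (mutant, n = 4) pallium. The genotype field reads dcKO for every untreated and ChIP library, so that C, M and K came from the titles.

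The targeted genes went against some labels. Smarcc1 stood at 247, 264, 269 and 248 CPM (reads of a gene relative to all gene reads of its library) in C libraries 1 to 4 and at 128 and 135 CPM in M 3 and M 4, but at 245 CPM in the library labelled M 2. In the treated set it was 245, 266, 299 and 256 CPM in WT Veh and 136, 133 and 138 CPM in dcKO Veh 1, 3 and 4, but 242 CPM in the library labelled dcKO Veh 2. The libraries labelled inhibitor 1 and 2 had 214 and 252 CPM, and inhibitor 3 and 4 had 139.8 and 173 CPM. Smarcc2 was 669.9 CPM in the library labelled M 2 against 399 and 398 CPM in M 3 and M 4, and 692 CPM in the library labelled dcKO Veh 2 against 425 to 439 CPM in dcKO Veh 1, 3 and 4. In inhibitor 1 to 4 it was 644, 695, 416 and 586 CPM, beside 664 to 834 CPM in WT Veh, so that inhibitor 4, which was kept in every fit, lay nearer to WT Veh for Smarcc2 and nearer to dcKO Veh 1, 3 and 4 for Smarcc1. No library was moved to another group. Each comparison is given with all libraries and again without these 4 libraries, a choice made after the data were seen.

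The untreated and vehicle libraries also tracked each other by number. Over the 100 autosomal genes that varied most within an untreated group, every one of the 7 untreated libraries correlated best with the vehicle library of the same number (C with WT Veh, M with dcKO Veh), at Pearson's r from 0.73 to 0.97. The best other number reached at most 0.08 for C libraries. For M 3 and M 4 it came close, at 0.871 and 0.835 against 0.934 and 0.927 for the same number. Ttr, a choroid plexus transcript, was 4.23, 12.9, 3.53 and 118 CPM in C 1 to 4 and 3.96, 11.4, 3.11 and 113 CPM in WT Veh 1 to 4. All 7 pairs also matched in the presence of Y-linked transcripts. Whether the paired libraries came from the same embryos is not given in the sources used here. The 2 genotype comparisons are therefore set side by side, and neither is counted as a repeat of the other. Total counts ran from 11946658 in the library labelled M 2 to 28391046 in a C library, and where no source names separate embryos the p-values measure only the spread between these libraries. The tissue was bulk, so that fewer cells of a type and less RNA per cell cannot be told apart.

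Most of the family was expressed in control pallium. Of 70 members, 61 reached 1 RPKM (CPM divided by the exon length in kilobases) as a median over the 4 C libraries, and 37 reached 10 RPKM, against 24.9% of all protein-coding genes at 10 RPKM. The median member stood at 11.8 RPKM and the median protein-coding gene at 1.75 RPKM. Levels between genes are compared on the RPKM scale throughout, and changes between groups on the CPM or log2 scale. CPM of the untreated and treated sets, which were counted over different gene tables, are not compared.

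Among the ligands a pair of ephrin-Bs ranked highest. Efnb3, a midline ephrin that stops corticospinal axons from recrossing, led all members at 78.3 RPKM (range 68.1 to 81.9, n = 4), followed among ligands by Efnb2 at 49.6 RPKM (range 49.2 to 55.7), and those ranges did not overlap. The leading transmembrane semaphorins were Sema4c at 32.96 RPKM and Sema4g at 32.8 RPKM, with the GPI-anchored Sema7a at 32.6 RPKM, and their ranges overlapped. Sema3c, a secreted semaphorin known to attract cortical axons, was the highest of class 3 at 21.0 RPKM, above Sema3f, which repels through Nrp2, at 10.9 RPKM. Slit1 exceeded Slit3 and Slit2, with 16.3, 3.39 and 1.84 RPKM. Efna3 led the ephrin-As at 17.6 RPKM (range 16.9 to 19.5), and Efna2 at 16.8 RPKM overlapped it. Netrins were low, at 3.78 RPKM for Ntn4 and 2.16 RPKM for Ntn1, while the membrane-anchored netrin-G Ntng2 reached 13.9 RPKM.

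Plexins were the most abundant receptors, with Plxna3 at 55.4 RPKM (range 54.0 to 59.2) and Plxna2 at 47.8 RPKM (range 45.2 to 52.9). Nrp1, the neuropilin that binds Sema3a and Sema3c, had 34.8 RPKM and Nrp2 24.2 RPKM. Epha4, which reads both ephrin classes, led the EphA receptors at 34.3 RPKM, and Ephb6, an Eph receptor without kinase activity, led the EphBs at 23.2 RPKM. Robo1 and Robo2, the neuronal Slit receptors, had 21.7 and 19.3 RPKM with overlapping ranges. Unc5a stood at 18.8 RPKM, Unc5d at 16.2 RPKM and Dcc at 6.53 RPKM. Robo3, a divergent Robo best known from commissural axons, was among the lowest at 0.32 RPKM. Ntn5 and Epha1 were near the limit of detection, at 0.0175 and 0.0707 RPKM, and neither was tested in the genotype comparisons. In WT Veh libraries, which were scaled separately, Efnb3 again led at 93.6 RPKM and Plxna3 was second at 59.4 RPKM.

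**Figure D1:**
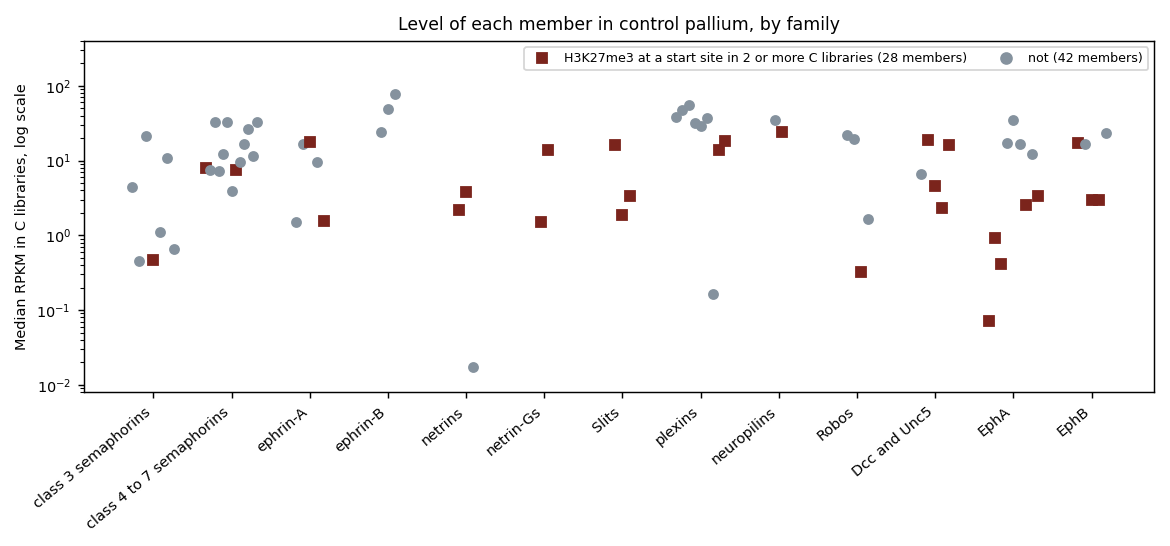
Median RPKM over the 4 C libraries (log scale) of the 70 members with counts, by family, 1 point per gene. Squares are the 28 members with an H3K27me3 region at a start site in 2 or more C libraries and circles the other 42; the ephrin-B family holds the highest point and no square, and within the EphA family all squares lie below all circles.

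Comparing M with C asks what loss of both BAF subunits did to guidance genes in untreated pallium. With all libraries no member passed an adjusted p of 0.05 in edgeR's quasi-likelihood test (0 of 68, against 1 of 15770 genes, 0.00634%), and DESeq2 called 7 (3.93% of all genes). At an unadjusted p under 0.05 there were 24 members (16% of all genes), and at under 0.01 there were 8. Ephb1, Robo1, Robo3 and Ntn4 were the 4 of these with higher means in M (2.66% of all genes), and Epha8, Slit1, Unc5d and Unc5a the 4 with lower means (2.8%). Groups did not overlap for 14 of the 68 members (13.2% of all genes). Without the library labelled M 2, 22 of 68 members were called, 11 higher (5.57% of all genes) and 11 lower (6.88% of all genes). The median member changed by -0.05 on the log2 scale and the median gene by less than 0.01. In this fit M is 2 libraries, and adjusted p-values below are from it, by edgeR over all genes, unless all libraries are named.

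Robo3 changed most. It stood at 2.56, 2.04, 1.28 and 2.35 CPM in C 1 to 4 and at 27.04 and 19.4 CPM in M 3 and M 4, and at 1.51 CPM in the library labelled M 2. The difference was 3.51 ± 0.22 (log2, SE), an 11.4-fold rise with adjusted p = 1.53e-05, and 3.003 ± 0.77 with adjusted p = 0.159 with all libraries. Thus M 3 and M 4 lay far above every C library, while the library labelled M 2 lay within the C range. Its main relatives moved little: Robo1 rose from 343, 356, 367 and 359.8 CPM in C to 453 and 451 CPM in M 3 and M 4 (0.34 ± 0.06, adjusted p = 0.00288), and Robo2 gave -0.17 ± 0.09 (adjusted p = 0.27). Their ligands moved in opposite directions. Slit1 fell from 93.9, 100.2, 99.0 and 90.5 CPM to 77.9 and 63.2 CPM (-0.44 ± 0.09, adjusted p = 0.00755), and Slit2 rose from 44.1, 54.1, 47.7 and 46.0 CPM to 56.0 and 71.0 CPM (0.40 ± 0.11, adjusted p = 0.0342).

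In the semaphorin system a ligand and its receptor fell together. Nrp1 was 314, 332, 348 and 356 CPM in C and 167 and 168 CPM in M 3 and M 4, against 384 CPM in the library labelled M 2, which was higher than any C library. The change was -1.01 ± 0.07 on the log2 scale (adjusted p = 1.22e-05), and -0.50 ± 0.30 (adjusted p = 0.469) with all libraries. Sema3c, one of its ligands, was 157, 142, 140.1 and 165 CPM in C and 69.2 and 65.1 CPM in M 3 and M 4 (-1.17 ± 0.08, adjusted p = 1.53e-05), with 183 CPM in the library labelled M 2. With all libraries Sema3c gave -0.53 ± 0.37 (adjusted p = 0.537). Both genes thus stood well below their C level in M 3 and M 4 and above it in M 2. Sema7a, which signals through integrins and Plxnc1, fell from 103, 104, 117 and 111 CPM to 63.0 and 63.6 CPM (-0.78 ± 0.07, adjusted p = 8.29e-05). In contrast, Sema3e, the ligand of Plxnd1, rose from 11.2, 9.48, 9.11 and 12.6 CPM to 20.8 and 20.4 CPM (0.96 ± 0.13, adjusted p = 0.00103). Plxnd1 itself rose by less (0.22 ± 0.05, adjusted p = 0.024), and its change was 0.01 ± 0.17 with all libraries. Sema5a rose (0.22 ± 0.06) and Plxna3 fell (-0.27 ± 0.06), with adjusted p = 0.0284 and 0.0187. Of the A-class plexins, Plxna1, Plxna2 and Plxna4 gave -0.02, 0.01 and 0.08 and did not pass. Sema3f, Sema6b, Sema6d and Sema4a, named in the study, gave -0.02, 0.15, 0.01 and 0.28 and did not pass either.

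Netrin, netrin-G and Unc5 genes changed in both directions. Ntn4, a laminin-related netrin of basement membranes, was 13.2, 15.1, 16.5 and 10.9 CPM in C and 27.6 and 26.1 CPM in M 3 and M 4, with 15.1 CPM in the library labelled M 2 (0.94 ± 0.14, adjusted p = 0.00207). Ntng2 fell from 53.8, 57.2, 57.0 and 43.6 CPM to 29.4 and 32.8 CPM (-0.77 ± 0.12, adjusted p = 0.00204). The library labelled M 2 had 54.4 CPM of Ntng2, within the C range, and all libraries gave -0.46 ± 0.21 (adjusted p = 0.335). The Unc5 receptors went both ways, with Unc5d lower (154, 137, 144 and 161 CPM in C, 97.3 and 96.0 CPM in M 3 and M 4, -0.62 ± 0.07, adjusted p = 0.000427) and Unc5c higher (43.2, 43.2, 51.4 and 45.3 CPM in C, 68.0 and 63.9 CPM in M 3 and M 4, 0.52 ± 0.08, adjusted p = 0.00246). The library labelled M 2 had 37.5 CPM of Unc5c, below every C library. With all libraries Unc5c gave 0.31 ± 0.18 (adjusted p = 0.449) and Unc5d -0.43 ± 0.13 (adjusted p = 0.175). Unc5d shares its locus and strand with Svet1, and their reads may not be separable. Unc5a (-0.25 ± 0.07, adjusted p = 0.0565) and Dcc (-0.36 ± 0.11, adjusted p = 0.0696) did not pass. Ntn1, the ligand of Dcc, gave -0.18 ± 0.34 (adjusted p = 0.796).

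Changes among ephrins and Eph receptors were smaller. Efna5 rose from 5.42, 6.69, 5.76 and 6.64 CPM in C to 9.88 and 8.16 CPM in M 3 and M 4 (0.56 ± 0.14, adjusted p = 0.0293), Efnb3 from 247, 252, 217 and 261 CPM to 300.3 and 295 CPM (0.29 ± 0.07, adjusted p = 0.0291), and Ephb1 gave 0.25 ± 0.07 (adjusted p = 0.0349). The library labelled M 2 had 193 CPM of Efnb3, below every C library, and all libraries gave 0.11 ± 0.15 (adjusted p = 0.765). Efna3 fell (-0.33 ± 0.08, adjusted p = 0.0256), as did Epha8 (-0.61 ± 0.14, adjusted p = 0.0184), Ephb3 (-0.43 ± 0.10, adjusted p = 0.0171) and Ephb6 (-0.28 ± 0.06, adjusted p = 0.0136). The library labelled M 2 had 21.2 CPM of Ephb3, above every C library, and all libraries gave -0.23 ± 0.15 (adjusted p = 0.479). Efna1 gave 0.58 ± 0.21 (adjusted p = 0.111). Efnb2, a strongly expressed ephrin, gave -0.01 ± 0.07, Ephb2 -0.00 ± 0.07 and Epha4 -0.18 ± 0.07, and none of them passed. Across the 68 tested members the changes ran from -1.17 to 3.51, with 28 above 0 and 40 below. Slit2, Sema5a, Ephb1 and Plxna4 overlap a gene on the opposite strand, and with the strand of counting not given their reads cannot be told apart from it.

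**Figure D2:**
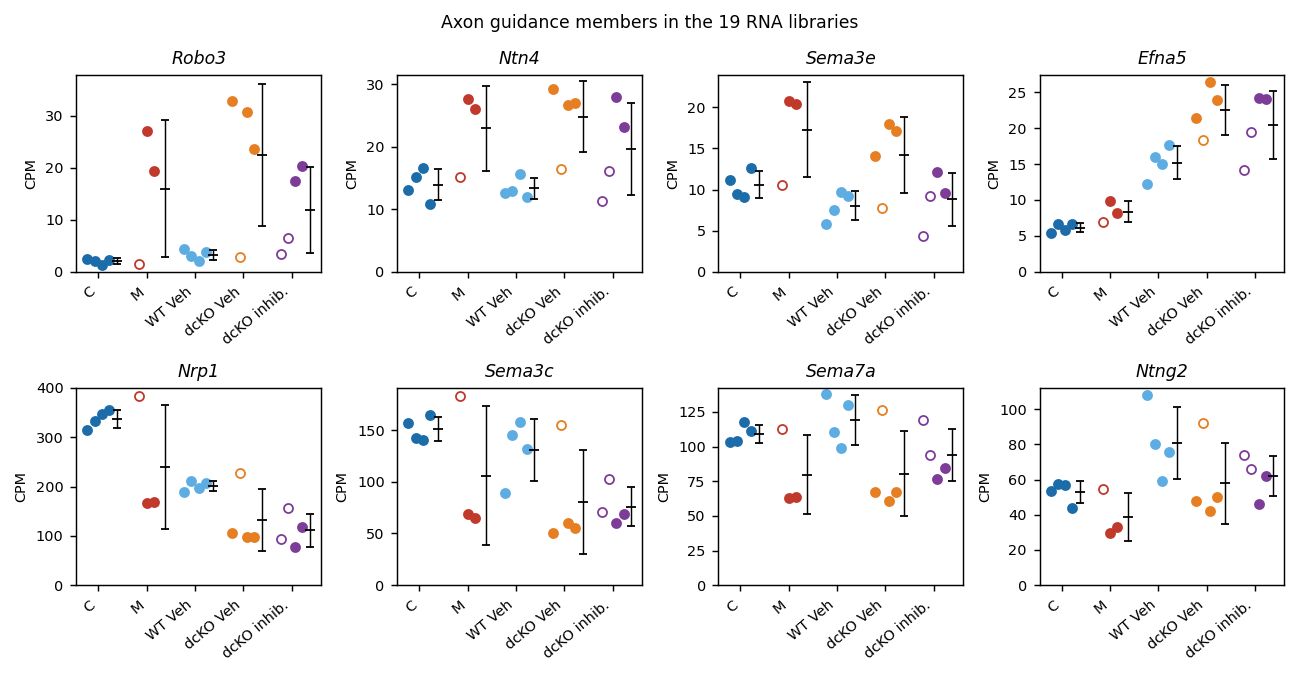
CPM of 8 members in the 19 RNA libraries, 1 point per library, with the mean and SD over all libraries of each group in black; untreated and treated sets were scaled separately. Open points are the libraries labelled M 2, dcKO Veh 2 and inhibitor 1 and 2. In the upper row the filled M and dcKO Veh points lie above their controls and in the lower row below them; the open M point lies within the C range for Robo3, Ntn4, Sema3e, Sema7a and Ntng2 and above it for Efna5, Nrp1 and Sema3c.

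Markers of cortical cell types moved with these genes. The 5 general neuronal markers summed to 8131 to 8851 CPM in C and 7235 to 7294 CPM in M 3 and M 4, and 3 of them (Dcx, Rbfox3 and Stmn2) were called lower. The 6 interneuron markers summed to 527 to 619 CPM and 694 to 765 CPM, with Dlx1, Dlx2, Dlx5 and Lhx6 called higher. The 8 radial glia markers summed to 1274 to 1373 and 1362 to 1453 CPM, which overlapped. Of them Fabp7, Hes5, Pax6 and Sox2 were called higher and Nes lower. Of the 6 deep-layer markers Fezf2, Sox5 and Tle4 were called lower, of 4 intermediate progenitor markers Eomes lower, of 7 endothelial markers Flt1 lower and of 4 oligodendrocyte precursor markers Pdgfra higher. No marker of Cajal-Retzius cells, choroid plexus, meninges, microglia or red blood cells was called. No listed marker was at 0 over a group, and the part of these cell types in the change of any guidance gene was not tested.

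The vehicle comparison asks the same of dcKO Veh against WT Veh, on libraries that tracked the untreated ones by number. With all 12 treated libraries in the fit 0 of 68 members passed an adjusted p of 0.05 in edgeR (1 of 16372 genes, 0.00611%), DESeq2 called 1 (0.623% of all genes), and 14 had an unadjusted p under 0.05 (9.46% of all genes). At under 0.01 there were 5, Robo3, Ntn4 and Efna5 with higher means in dcKO Veh (1.56% of all genes) and Plxnb3 and Sema3g with lower means (1.29%). Leaving out the library labelled dcKO Veh 2 alone gave 6 called members, 2 higher (1.34% of all genes) and 4 lower (2.06%). Leaving out also the libraries labelled inhibitor 1 and 2, which share the estimate of spread, gave 10, with 5 higher (2.47% of all genes) and 5 lower (3.34%). The values below are from this last fit.

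Robo3 was 4.35, 2.97, 2.07 and 3.76 CPM in WT Veh and 32.7, 2.89, 30.7 and 23.6 CPM in dcKO Veh 1 to 4, with the library labelled dcKO Veh 2 within the WT Veh range. Without it the rise was 3.11 ± 0.21 on the log2 scale, 8.63-fold (adjusted p = 3.75e-05), and with all libraries 2.75 ± 0.66 (adjusted p = 0.233). Ntn4 was 12.6, 12.9, 15.7 and 12.05 CPM in WT Veh and 29.2, 16.4, 26.7 and 26.99 CPM in dcKO Veh (1.06 ± 0.12, adjusted p = 0.000684). Here all 4 dcKO Veh libraries were above all 4 WT Veh libraries, the lowest being dcKO Veh 2. Sema3e was 5.83, 7.52, 9.68 and 9.18 CPM and 14.1, 7.79, 17.9 and 17.1 CPM (1.03 ± 0.18, adjusted p = 0.00781). Efna5 and Robo1 rose by 0.65 and 0.33 (adjusted p = 0.017 and 0.0358). Plxnb3, a plexin of low level here, had lower means in dcKO Veh without passing (-1.08 ± 0.36, adjusted p = 0.122), as did Sema3g (-0.62 ± 0.20, adjusted p = 0.11).

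Nrp1 was 188, 211, 198 and 207 CPM in WT Veh and 105, 227, 97.8 and 98.1 CPM in dcKO Veh 1 to 4. The change without dcKO Veh 2 was -1.01 ± 0.13 (adjusted p = 0.00159), and with it -0.61 ± 0.26 (adjusted p = 0.481). Sema3c was 89.2, 145, 158 and 132 CPM and 50.7, 155, 60.5 and 55.4 CPM (-1.24 ± 0.18, adjusted p = 0.00241), so that dcKO Veh 2 lay within the WT Veh range and the other dcKO Veh libraries below it. Sema7a was 138, 110.4, 98.8 and 129.6 CPM and 67.4, 126, 60.7 and 67.3 CPM (-0.88 ± 0.12, adjusted p = 0.00236). Ntng2 and Ephb3 fell by 0.80 and 0.53 (adjusted p = 0.0331 and 0.0448). Unc5d (-0.58 ± 0.15, adjusted p = 0.0508) and Unc5c (0.62 ± 0.19, adjusted p = 0.0967) did not pass. The interneuron markers summed to 539 to 654 CPM in WT Veh and 748 to 810.5 CPM in dcKO Veh 1, 3 and 4, and their part in these changes was not tested. Only these markers are given for this comparison, which does not show whether markers of other cell types changed.

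A test of whether the genotype change differed between the untreated and the treated set called 0 of 69 members in edgeR, with none at an unadjusted p under 0.05 (0.544% of all genes) and a smallest p of 0.242; without the libraries labelled M 2 and dcKO Veh 2 the smallest p was 0.13. The test treats the sets as independent, which the tracking by number goes against, and so its p-values do not measure agreement.

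**Figure D3:**
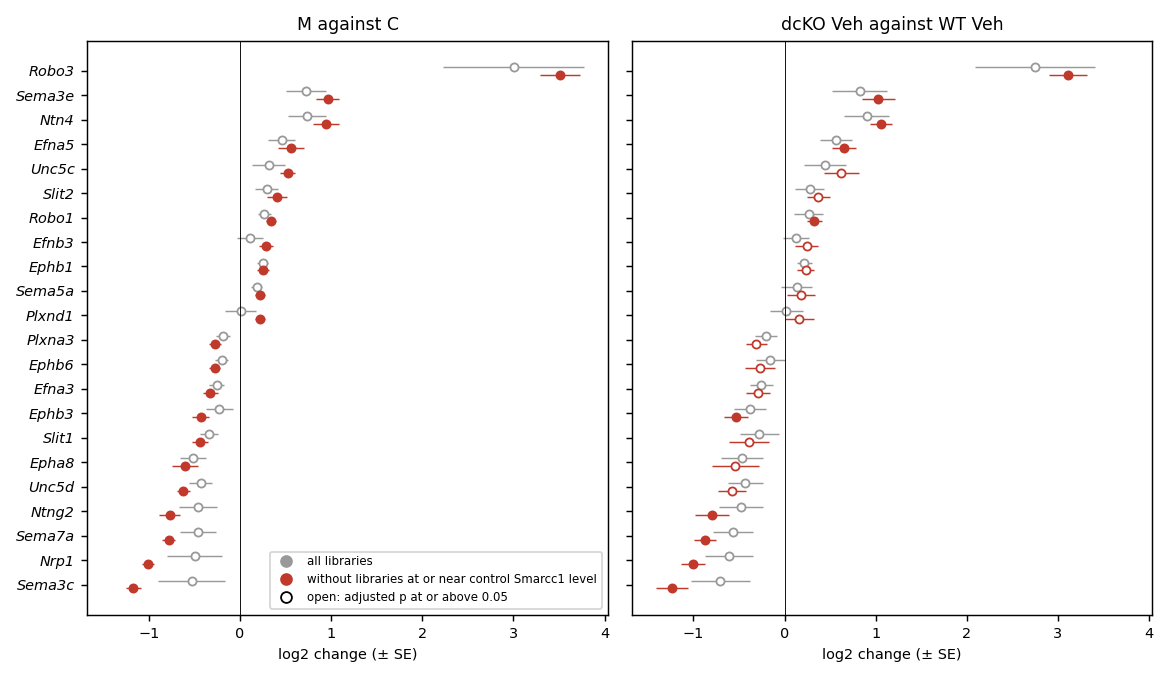
Log2 change ± SE of the 22 members called in M against C without the library labelled M 2, for that comparison (left) and for dcKO Veh against WT Veh (right). Grey is the fit with all libraries, red the fit without the libraries at or near the Smarcc1 level of controls (1 library on the left, 3 in the fit on the right), and filled points have an adjusted p under 0.05. The 22 were chosen on the red points of the left panel, and the libraries of both panels tracked each other by number.

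Comparing the inhibitor with vehicle in dcKO cortex asks whether blocking Wnt signalling altered these genes in the mutant. With all libraries 0 of 68 members passed in edgeR (9 of 16372 genes, 0.055%), DESeq2 called 3 (1.88% of all genes), and 15 members had an unadjusted p under 0.05 (15.8% of all genes). At under 0.01 there were 6, of which Plxna4, Epha6, Sema4d, Plxna2 and Sema5a had lower means with inhibitor (2.2% of all genes) and Ntn1 a higher mean (2.44%). Groups did not overlap for 10 of 68 members (8.51% of all genes). A negative change was seen for 26 of 33 tested receptors and 19 of 35 ligands. Their medians were -0.12 and -0.07, beside 0.01 for all genes, and a difference between receptors and ligands was not tested. Without dcKO Veh 2 and inhibitor 1 and 2, which leaves 2 inhibitor libraries against 3, 2 members were called lower (0.72% of all genes) and none higher (0.303%).

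Those 2 were Epha6 and Plxna4. Epha6, an EphA receptor of low abundance whose locus overlaps the gene 4930547E14Rik, was 10.1, 8.68, 9.50 and 9.74 CPM in dcKO Veh 1 to 4 and 3.53, 6.31, 2.82 and 4.66 CPM in inhibitor 1 to 4 (-1.14 ± 0.21, adjusted p = 0.0849 with all libraries and -1.38 ± 0.22, adjusted p = 0.0296 without the 3). Plxna4, a receptor for class 3 semaphorins with neuropilins, was 579, 480.0, 527 and 565 CPM and 329, 421, 371 and 339 CPM (-0.56 ± 0.10, adjusted p = 0.0849, and -0.65 ± 0.11, adjusted p = 0.0296). For both genes every inhibitor library lay below every dcKO Veh library, including the library labelled dcKO Veh 2, and below every WT Veh library (lowest 10.3 and 508 CPM). Plxna2 was 831, 793, 794 and 817 CPM and 496, 747, 596 and 635 CPM (-0.39 ± 0.11, adjusted p = 0.186), and Sema4d, a ligand of B-class plexins, 56.3, 59.4, 56.1 and 58.9 CPM and 36.1, 51.9, 37.9 and 45.0 CPM (-0.43 ± 0.11, adjusted p = 0.157).

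Dcc and Ntn1 varied within the inhibitor group. Dcc was 62.3, 71.6, 58.7 and 62.0 CPM in dcKO Veh and 8.55, 66.0, 12.5 and 45.8 CPM in inhibitor 1 to 4, so that inhibitor 1 and 3 fell far below every vehicle library inhibitor 4 below them and inhibitor 2 within their range (-0.94 ± 0.46, adjusted p = 0.337). Ntn1 was 14.2, 8.19, 15.1 and 14.1 CPM and 15.7, 43.6, 17.8 and 41.7 CPM (1.21 ± 0.39, adjusted p = 0.207), with inhibitor 2 and 4 highest. The choroid plexus markers also differed among these libraries, summing to 11.04 to 837 CPM over the inhibitor group against 6.59 to 10.4 CPM in dcKO Veh, with none of the 6 at 0 over a group, and their part in the changes was not tested. Robo3 and Ntn4 were lower in the inhibitor libraries at the Smarcc1 level nearest WT Veh. Robo3 was 3.35 and 6.49 CPM in inhibitor 1 and 2 and 17.3 and 20.2 CPM in inhibitor 3 and 4, and Ntn4 was 11.3 and 16.1 CPM in the former and 27.9 and 23.2 CPM in the latter. Nrp1 did not split in this way, at 93.5, 156, 76.9 and 118 CPM in inhibitor 1 to 4. The effect of the inhibitor on these genes and the Smarcc1 level of its libraries cannot be told apart in the comparison with all libraries. In inhibitor 3 and 4 against dcKO Veh 1, 3 and 4 the changes of Robo3, Nrp1 and Sema3c were -0.62 ± 0.23, -0.04 ± 0.16 and 0.22 ± 0.20 (adjusted p = 0.191, 0.926 and 0.625).

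**Figure D4:**
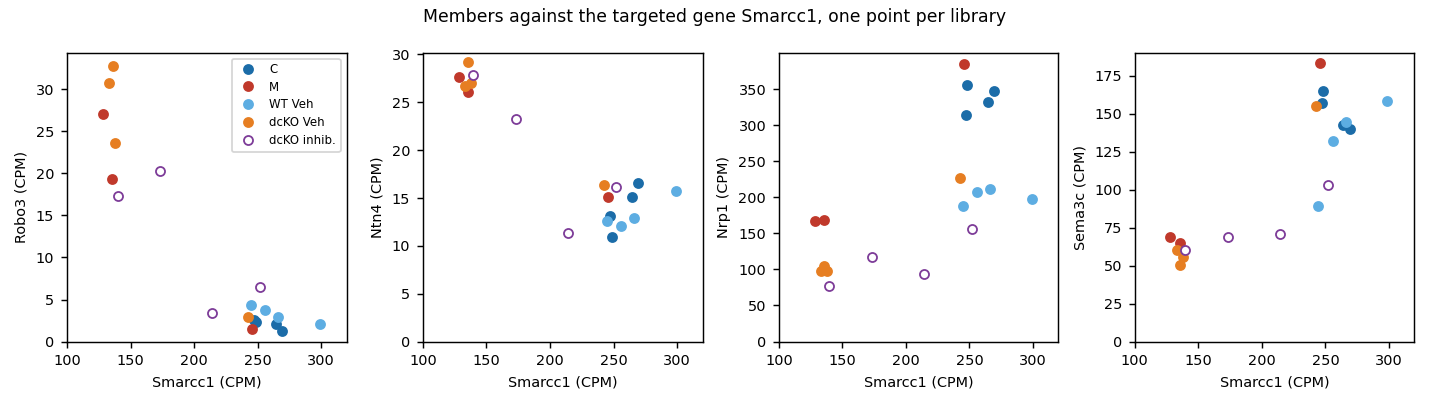
CPM of Robo3, Ntn4, Nrp1 and Sema3c against CPM of Smarcc1 in the 19 RNA libraries, coloured by labelled group, with inhibitor libraries open. The red and orange points among the controls on the Smarcc1 axis are the libraries labelled M 2 and dcKO Veh 2, which lie with the blue control points for Robo3 and Ntn4.

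H3K27me3 was common at these genes. Peaks of the 8 libraries were merged into 22220 regions with peaks in 2 or more libraries, and 126 of them lay inside a member gene or within 2000 bp of its start site, at 51 members in all. A region lay at a start site for 42 of 71 members (59.2%, against 24.1% of protein-coding genes), for 28 members with peaks in at least 2 C libraries (39.4%, against 16.7%), and for 4 members, Robo3, Ntn1, Epha10 and Epha8, with peaks in all 8 libraries (5.63%, against 3.96%). All 3 Slits, all 4 Unc5 receptors and both netrin-Gs had the mark in 2 or more C libraries, while none of the 3 ephrin-Bs had it. Of the 4 Robos only Robo3 carried it, and of the 9 EphA receptors Epha1, Epha2, Epha6, Epha8 and Epha10 did. In the EphA family the marked receptors stood at 0.0707 to 3.39 RPKM in C and the unmarked Epha3, Epha4, Epha5 and Epha7 at 12.1 to 34.3 RPKM. Over all members the median level in C was 3.39 RPKM for the 28 with the mark and 16.8 RPKM for the 42 without, beside 0.636 and 2.44 RPKM for all protein-coding genes.

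The region at Robo3 spanned chr9:37431142-37436056 on mm10 (4915 bp) and covered its start site. Its log2 highest fold enrichment over input was 3.06, 2.45, 2.04 and 2.43 in C 1 to 4 and 3.33, 2.46, 2.305 and 2.98 in K 1 to 4. Every library labelled K thus had a peak there (K minus C 0.27 ± 0.63, SE). The K label rests on the titles alone, without the check by Smarcc1 level that the RNA libraries had. At Ntn4, chr10:93639689-93643288, the values were 3.14, 2.02, 0 and 2.07 in C and 3.13, 0, 0 and 2.07 in K, where 0 means no peak. Of the 3 members with the lowest adjusted p among those that fell, Nrp1 had no region at its start, and Sema3c had a region, chr5:17573702-17575222, with a peak in C 1 and K 4 only, at 1.63 and 1.66. Sema7a had a region with peaks in K 1 and K 4, at 1.80 and 1.89, and in no C library.

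Promoters of 61 members were matched by symbol in RefSeq (GRCm38.p6, from 250 bases before to 50 after the start). They were rich in CG pairs, counted as CG on the strand given, with a median of 22 per promoter against 14 over all protein-coding genes, and 82% held 10 or more against 58.9%. Members with the mark in 2 or more C libraries had a median of 23 (n = 25) and the others 18.5 (n = 36), beside 17 and 13 for all protein-coding genes. The promoters of the 2 members with the largest rises that had the mark and of the 2 that fell most are shown 5′ to 3′, with CG in capitals, to set the sequence at a start site beside its mark and its change. For Robo3, Ntn4 and Sema3c the whole window lay inside the H3K27me3 region given above.
Robo3, chr9:37433126-37433425 (- strand): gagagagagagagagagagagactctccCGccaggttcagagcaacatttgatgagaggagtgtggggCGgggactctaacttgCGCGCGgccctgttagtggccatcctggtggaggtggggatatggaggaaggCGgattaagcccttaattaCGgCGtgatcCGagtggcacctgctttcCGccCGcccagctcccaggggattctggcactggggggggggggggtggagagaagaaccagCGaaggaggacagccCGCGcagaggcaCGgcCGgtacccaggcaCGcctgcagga
Ntn4, chr10:93640799-93641098 (+ strand): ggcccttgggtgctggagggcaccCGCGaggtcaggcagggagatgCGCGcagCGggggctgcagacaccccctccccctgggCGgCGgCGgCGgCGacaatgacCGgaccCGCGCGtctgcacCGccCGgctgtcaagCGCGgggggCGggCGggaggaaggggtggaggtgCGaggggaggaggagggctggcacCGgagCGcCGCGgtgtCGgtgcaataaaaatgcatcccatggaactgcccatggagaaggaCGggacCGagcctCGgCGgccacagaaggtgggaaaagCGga
Nrp1, chr8:128358823-128359122 (+ strand): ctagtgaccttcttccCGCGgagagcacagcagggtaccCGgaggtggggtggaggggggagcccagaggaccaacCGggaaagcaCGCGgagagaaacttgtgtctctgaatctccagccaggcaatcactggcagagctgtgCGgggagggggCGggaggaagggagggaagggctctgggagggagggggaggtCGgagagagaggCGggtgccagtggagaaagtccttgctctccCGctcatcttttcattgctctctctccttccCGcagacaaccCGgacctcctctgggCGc
Sema3c, chr5:17574566-17574865 (+ strand): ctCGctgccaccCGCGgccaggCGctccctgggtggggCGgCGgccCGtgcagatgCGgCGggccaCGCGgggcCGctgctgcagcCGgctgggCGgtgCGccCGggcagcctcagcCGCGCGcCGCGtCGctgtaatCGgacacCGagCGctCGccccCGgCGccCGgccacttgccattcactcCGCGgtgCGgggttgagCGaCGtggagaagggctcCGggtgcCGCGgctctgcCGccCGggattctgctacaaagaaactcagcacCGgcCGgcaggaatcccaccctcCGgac
They held 17, 31, 14 and 42 CG pairs, and so CG count did not order these 4 genes by mark or by direction.

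The widest region of any member lay within Slit3, chr11:35537184-35573377 (36194 bp), away from its start site, with log2 enrichment of 2.01, 2.12, 0 and 2.05 in C and 1.96, 2.20, 2.03 and 2.68 in K. Next came Ntn1 (chr11:68381210-68394311, 13102 bp), Epha10 (chr4:124877784-124888841, 11058 bp), Sema6b (10957 bp, overlapping the gene away from its start site and covering the start sites of Lrg1 and Plin5) and Unc5b (9843 bp). Ntn1 had 3.27, 2.32, 2.26 and 2.32 in C and 3.15, 2.61, 2.22 and 3.16 in K, and Epha8 had 2.63, 2.18, 2.104 and 2.16 and 2.89, 2.14, 2.27 and 2.60. Unc5a (9341 bp), Epha8 (9000 bp), Ephb1 (8566 bp), Slit1 (7732 bp) and Nrp2 (6584 bp) completed the 10 widest. Unc5a and Nrp2 were among the marked members expressed above 10 RPKM in C, which 9 of 28 were (32.1%, against 10.5% of marked protein-coding genes).

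Between K and C no member region passed a test. In limma 0 of 126 passed an adjusted p of 0.05, as did 0 of 22220 regions, and 0 of 126 had an unadjusted p under 0.05 (0.198% of all regions higher and 0.0225% lower in K). The smallest unadjusted p was 0.0597, at a region in Slit3 (K minus C 1.61 ± 0.86). The mean was higher in K at 83 of 126 member regions (65.9%, against 59.8% of all regions), but at 56 of 121 (46.3%, against 41.6%) without C 3, so that it no longer covered most member regions once that library was left out. Standard errors of the difference ran from 0.61 to 0.91 on the log2 scale, so that differences of that size were not detectable with 4 libraries a group. The larger difference of 1.61 in Slit3 did not pass either. Fewer regions had an unadjusted p under 0.05 than chance alone would give, so that the lack of calls does not show that the mark was unchanged. Peak heights were tested here, and the study reported more genes with increased than with decreased H3K27me3. MACS2 kept 13.7%, 61.5%, 12.3% and 62.2% of tags as non-duplicates in C 1 to 4 and 16%, 18%, 66.5% and 32.8% in K 1 to 4. Peaks only in the 5 libraries that kept under 33% made up 56 of the 126 member regions, beside 12043 of all 22220 regions.

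**Figure D5:**
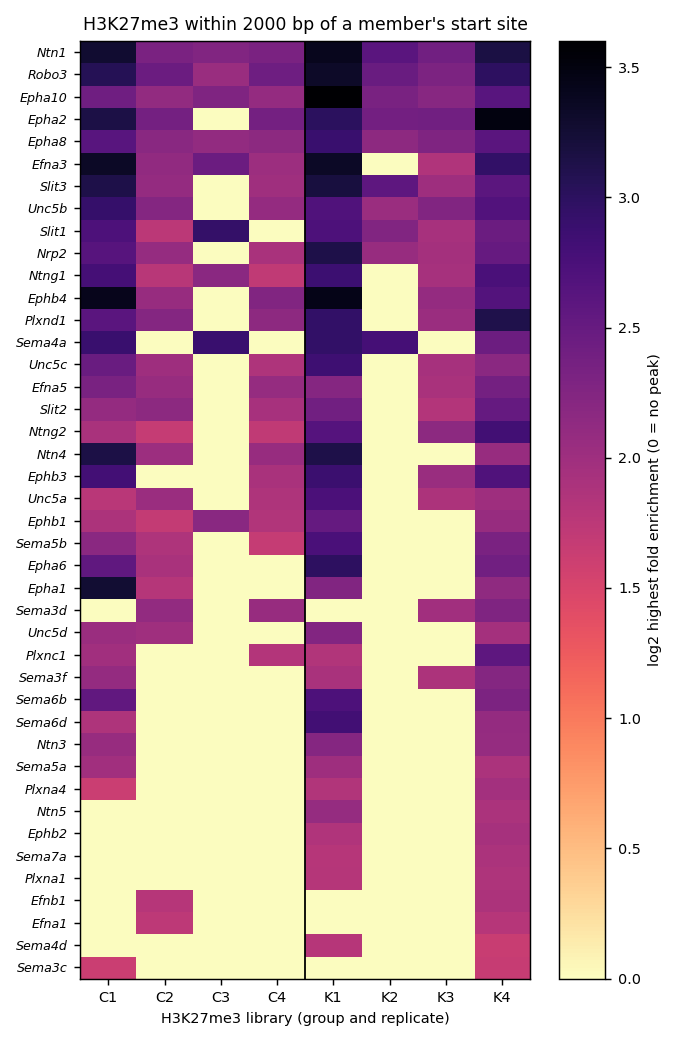
Log2 of the highest H3K27me3 fold enrichment within 2000 bp of a start site in each of the 4 C and 4 K libraries, for the 42 members with such a region, ordered by their sum. Robo3, Ntn1, Epha10 and Epha8 are marked in all 8 libraries, and many lower rows are filled in C1, K1 and K4 only.

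Marked members changed in both directions in M against C without the library labelled M 2. Of the 27 tested with the mark 7 were called higher (25.9%) and 6 lower (22.2%), and of the 41 without it 4 were called higher (9.76%) and 5 lower (12.2%). The same shares over all protein-coding genes were 9.46% and 11.5% with the mark and 5.11% and 6.4% without. Robo3, Ntn4, Efna5, Unc5c and Slit2 were among the marked members that rose, and Ntng2, Unc5d, Epha8, Ephb3, Slit1 and Efna3 were those that fell.

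Beyond the ligands and receptors, 77 partners and effectors of guidance signalling were tested. In M against C 0 passed with all libraries. At an unadjusted p under 0.01 there were 11 in either direction, beside 2.66% of all genes higher and 2.8% lower. Without the library labelled M 2 there were 7 called higher (5.57% of all genes) and 16 called lower (6.88%). Cntn2, an axonal adhesion molecule also called TAG-1, fell most of those named here (-1.42 ± 0.13, adjusted p = 0.000128, and -1.37 ± 0.15, adjusted p = 0.000503 in dcKO Veh against WT Veh without the 3 libraries). L1cam (-0.37 ± 0.07) and Nrcam (-0.32 ± 0.07), which pair with neuropilins at the axon surface, fell too (adjusted p = 0.00564 and 0.012), as did Neo1, the relative of Dcc (-0.37 ± 0.07, adjusted p = 0.00576), and its ligand Rgma (-0.47 ± 0.08, adjusted p = 0.00425). Draxin, a secreted Dcc ligand, rose (0.27 ± 0.06, adjusted p = 0.0186). In the vehicle comparison 1 was called higher (2.47% of all genes) and 7 lower (3.34%) without the 3 libraries, and with the inhibitor 0 higher (0.303%) and 3 lower (0.72%).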

How the data were processed

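Bulk RNA-seq of 19 E17.5 pallium or cortex libraries and H3K27me3 ChIP-seq of 8 libraries were analysed. Per the study's methods, alignment was by STAR against mm10 and the authors then deposited, 1 file per library, unnormalised featureCounts read counts per Ensembl gene; strand and annotation are not given in the sources used here. For ChIP the authors called broad peaks per library with MACS2 against pooled input, and deposited for each peak a fold enrichment, a pileup height (signal) and -log10 q.

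The counts were fitted with edgeR (version 4.0.16; TMM, filterByExpr, robust quasi-likelihood, Benjamini-Hochberg adjustment over all genes, threshold 0.05), untreated and treated sets separately. Treated comparisons used all 12 libraries in 1 fit. DESeq2 (version 1.42.0), other size factors, no filter, a replicate block and leaving out each library were alternatives. Symbols came from GENCODE M21 (95.4% and 99.3% of IDs), which also gave exon lengths for RPKM. Peaks were merged across libraries, kept with peaks in 2 or more, and tested with limma (version 3.58.1) on log2 of the highest fold enrichment, with 0 for no peak. A gene counted as marked where a region with peaks in 2 or more C libraries lay within 2000 bp of a start site, unless another number of libraries is named. Scripts were tested on simulated data.

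The members, the marker lists, the list of other pathway genes and the 4 libraries left out were chosen with earlier results of these data known. Named genes were those called in any RNA comparison, up to 10 per comparison at an unadjusted p under 0.01, the highest of each family, the 10 with the widest regions, and members the study names. Other members were named after their values were seen, to describe their families. Total counts limit the precision of low genes such as Robo3 in controls. The result of 1 marker list is not reported here.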

Additional observations from a re-analysis of the deposited data

Results flagged for a closer look

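In 120 groups of 4 libraries (30 members in 4 groups) 7 held a library far from the other 3 by Dixon's test. Chance alone gives this in about 1 of 20 independent groups. Members measured in the same library are not independent, so that the count of 7 cannot be set against that rate. Of the 7, 6 were the library labelled dcKO Veh 2, the one at the Smarcc1 level of WT Veh. It was high for Nrp1, at 227 CPM beside 97.8 to 105 CPM in the other dcKO Veh libraries, for Sema3c, at 155 CPM beside 50.7 to 60.5 CPM, for Sema7a, at 126 CPM beside 60.7 to 67.4 CPM, and for Ntng2, at 92.1 CPM beside 41.9 to 49.8 CPM. It was low for Efnb3, at 226 CPM beside 332 to 341 CPM, and for Ntn1, at 8.19 CPM beside 14.1 to 15.1 CPM. Nrp1, Sema3c, Sema7a and Ntng2 did not pass against WT Veh with all libraries. They passed once dcKO Veh 2 and inhibitor 1 and 2 were left out, so that their flags are no separate result. The remaining library was WT Veh 1, which was low for Robo1, at 293 CPM beside 319 to 324 CPM.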

How the results depend on the processing

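With all libraries no member was called in edgeR in any comparison, and other size factors left that count at 0. In M against C DESeq2 called 5 members higher and 2 lower (3.93% of all genes in either direction). Leaving out 1 library at a time gave 0 to 11 higher and 0 to 11 lower, with 11 and 11 only without the library labelled M 2, which leaves 2 M libraries. Plxnd1 ranged from -0.13 to 0.22 over those fits and was -0.039 with a replicate block, so that its direction rests on the library labelled M 2. In dcKO Veh against WT Veh DESeq2 called 1 higher (0.623% of all genes), leaving out 1 library gave 0 to 2 higher and 0 to 4 lower (2 and 4 without the library labelled dcKO Veh 2), and leaving out 3 libraries gave 5 higher and 5 lower. With the inhibitor DESeq2 called 3 lower (1.88% of all genes) and the fit with no filter on low counts 1 lower. Leaving out 1 library gave 0 to 5 lower (5 without inhibitor 2, 2 without dcKO Veh 2), and leaving out 3 libraries gave 2 lower. The cause of these moves was not tested. Of the H3K27me3 regions within 2000 bp of a member's start site 38 of 47 had a higher mean in K (80.9%, against 74.4% of regions at start sites of protein-coding genes). Leaving out 1 library gave from 56 of 121 member regions (46.3%, against 41.6% of all regions, without C 3) to 100 member regions of 125 (80%, against 76.4%, without K 2), and 56 of 105 without K 1 (53.3%, against 59.5%).

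The replicate numbers did not pair the libraries within a set, with same-number correlations of -0.31 to -0.03 in the untreated set, -0.18 to 0.40 in the treated set and -0.32 to 0.58 for H3K27me3. With the replicate block 0 members were called in every RNA comparison and 0 member regions had an unadjusted p under 0.01. For single genes, medians and region counts, 592 values kept their direction and side of the threshold, 58 passed the threshold only under an alternative, 4 reversed (all Plxnd1) and 4 moved. Of the counts of calls 148 stayed within 1.5 times the reported count and 14 did not. With all libraries edgeR called 0 members in every RNA comparison. A count that stayed at 0 does not measure how firm the calls made without some libraries are.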
